A study of Mus musculus with 8 samples.

Results

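The complement genes described here are C1qa, C1qb, C1qc, C3, C4b, C3ar1, C5ar1, Cfb and Serping1, 9 of the 21848 genes counted, taken by their symbols in the gene list of the count tables. They were followed in single-cell RNA sequencing of the injured right sensorimotor cortex of 8 adult mice, 1 library per mouse. Photothrombosis (PT), in which light on a dye in the blood closes cortical vessels, had been induced 6 days earlier. In the ancrod group, 4 mice received 2.4 U ancrod per day, a snake venom enzyme that depletes fibrinogen, from subcutaneous osmotic minipumps implanted 2 days before PT, and the 4 mice of the control group received saline the same way.

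All mice carried the strain label C57Bl/6J (written Bl/J6 as the genotype) and the sex label female, whereas the methods of the study give C57BL/6N mice of both sexes. Which of these applies could not be worked out. No mouse was uninjured, so every value below comes from tissue after PT. Replicates 1 to 3 of each group belong to the first batch of injury and sequencing and replicate 4 of each to the second. The dissected block, freed of the meninges, held injured cortex together with a rim of spared tissue. Myelin was removed with beads, red blood cells were lysed, and no cell type was enriched.

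Complement is a cascade of plasma and tissue proteins that tags cells and debris for removal. C1q, built from the products of C1qa, C1qb and C1qc, opens the classical pathway, which cleaves C4 and then C3, while factor B (Cfb) amplifies C3 cleavage in the alternative pathway. The small fragments released act on the receptors C3aR (C3ar1) and C5aR1 (C5ar1), and C1 inhibitor (Serping1) blocks the proteases bound to C1q. In brain, C1q is known as a product of microglia, and C3 and C4 mark glia after injury.

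Each library was counted in unique molecular identifiers (UMIs), 1 for each captured RNA molecule. A droplet was kept as a cell with at least 2000 UMIs and under 20% mitochondrial UMIs, which left 46216 droplets, 5080 to 6277 per library. After removal of 2144 likely doublets, 44072 cells were clustered without the complement genes, and clusters were named from marker genes. The names stand for microglia-like, macrophage-like and likewise for all others, and 12 of 60 clusters (5252 cells) stayed unnamed. The 12 classes with at least 10 cells in every mouse were microglia (17148 cells), endothelial cells (7066), macrophages (3574), astrocytes (3403), fibroblasts (2170), pericytes (1123), border-associated macrophages (BAMs; 797), monocytes (745), neutrophils (693), dendritic cells (691), T or NK cells (471) and smooth muscle cells (288). Levels are UMIs of the gene per 1000000 UMIs of the class in each mouse (CPM), given as mean ± SD over 8 mice unless stated. Each molecule is counted once from its 3′ end, so CPM were not divided by gene length. Total UMIs per library were 97861434 to 122758649 in saline and 126682918 to 142139441 in ancrod mice. Library pairs shared 3 to 15 barcodes. Droplets with at most 100 UMIs, termed empty droplets, held 3771590 to 6586980 UMIs per library and served as the profile of RNA that was free in the suspension.

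C1qa, C1qb and C1qc lie head to tail within 20153 bases of chromosome 4, with gaps of 2954 and 2846 bases between them, on the minus strand of GRCm39. C1qa spans chr4:136623223-136626161, C1qc spans chr4:136616466-136620376 and C1qb spans chr4:136606009-136613511, and each has 3 exons in its canonical transcript. Since the levels of these neighbours followed one another over the cell classes, the 120 bases before each start (GRCm39, before the canonical transcript of GENCODE; chr4:136626162-136626281 for C1qa, chr4:136613512-136613631 for C1qb, chr4:136620377-136620496 for C1qc) are printed 5′ to 3′ on the strand of the gene, with motif matches in capitals.
C1qa: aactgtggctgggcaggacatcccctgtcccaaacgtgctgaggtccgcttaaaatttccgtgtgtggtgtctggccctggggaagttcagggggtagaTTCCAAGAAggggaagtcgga
C1qb: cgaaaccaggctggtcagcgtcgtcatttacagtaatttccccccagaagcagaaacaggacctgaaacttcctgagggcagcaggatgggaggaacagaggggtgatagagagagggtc
C1qc: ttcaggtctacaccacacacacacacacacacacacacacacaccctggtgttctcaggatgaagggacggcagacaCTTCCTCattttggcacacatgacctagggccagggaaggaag

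The capitals before C1qa match the STAT-type GAS motif (TTCNNNGAA), 21 to 13 bases before the start, and those before C1qc match the PU.1 core (GAGGAAG, here on the other strand), 43 to 37 bases before the start. The 3 motifs searched, on both strands, were these and the interferon regulatory pair (GAAANNGAA). Within 250 bases before the start, the interferon regulatory pair was found for C4b (37 to 29 bases before) and C5ar1 (66 to 58 bases before), and no motif for C1qb, C3, C3ar1, Cfb and Serping1. The start is that of the canonical transcript. For C5ar1 (window chr7:15993264-15993513) and Serping1 (window chr2:84605789-84606038) the window reaches into the span of the gene given below, in which other transcripts start earlier, and the bases before the whole span were not searched. Of 21705 gene starts, 7.7% held the GAS motif, 7.57% the interferon regulatory pair and 10.3% the PU.1 core.

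The other members lie apart from C1q and also on minus strands. C3 is at chr17:57510964-57535155 with 41 exons, C4b at chr17:34947354-34962912 with 41 exons and Cfb at chr17:35074852-35081559 with 18 exons. C3ar1 is at chr6:122823393-122833122 and C5ar1 at chr7:15980668-15993465, with 2 exons each, and Serping1 is at chr2:84595705-84620873 with 8 exons. C4a, the near-identical neighbour of C4b, was not among the genes counted, so reads of the pair may not be told apart in C4b.

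**Figure D1:**
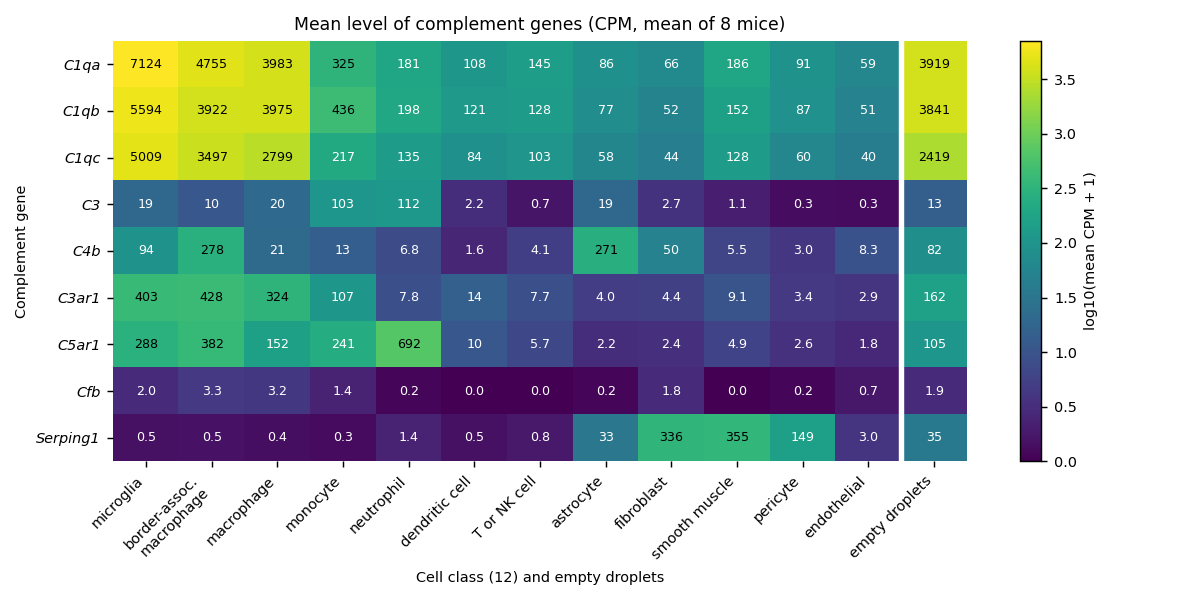
Mean level of the 9 complement genes in 12 cell classes and in empty droplets (CPM, mean over 8 mice, printed in each field; the colour is log10 of mean CPM + 1). The C1q genes are at 2799 CPM or more in microglia, BAMs and macrophages, whereas Serping1 is highest in smooth muscle cells and fibroblasts.

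The C1q genes had their highest levels in microglia, with C1qa at 7124 ± 411 CPM, C1qb at 5594 ± 194 CPM and C1qc at 5009 ± 258 CPM. C1qa measured 6403, 7047, 7021 and 7858 CPM in saline mice 1 to 4 and 7279, 6960, 7354 and 7073 CPM in ancrod mice 1 to 4. C1qb measured 5488, 5573, 5374 and 5922 CPM in the saline and 5471, 5812, 5434 and 5680 CPM in the ancrod mice. C1qc measured 4598, 5135, 4965 and 5441 CPM in the saline and 5021, 4766, 4956 and 5186 CPM in the ancrod mice. Saline 4 was the highest mouse for all chains, the groups overlapped, and the coefficient of variation over mice was 5.77%, 3.47% and 5.15%.

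BAMs followed with 4755 CPM of C1qa, 3922 CPM of C1qb and 3497 CPM of C1qc, and macrophages with 3983 ± 380, 3975 ± 291 and 2799 ± 264 CPM. Monocytes held 325, 436 and 217 CPM, and the remaining 8 classes 40.2 to 198 CPM of any chain. The order of classes was tested between neighbours with a two-sided exact sign-flip permutation test over 8 mice, adjusted over 99 neighbour pairs, in which the smallest possible p of 0.00781 corresponds to an adjusted p of 0.0352. C1qa was higher in microglia than in BAMs by 0.59 (log2 CPM + 1; 8 of 8 mice), and C1qc by 0.52 (8 of 8 mice), both at that adjusted p. C1qb in microglia was above its next class, macrophages, by 0.50 (adjusted p = 0.0352, exact test), and macrophages and BAMs differed by 0.02 (adjusted p = 0.98, exact test). C1qc was above macrophages in BAMs by 0.32 (adjusted p = 0.0352, exact test), whereas for C1qa the difference of 0.26 missed the threshold (7 of 8 mice, adjusted p = 0.0619, exact test). The step down to monocytes was 3.68 for C1qa and 3.75 for C1qc from macrophages and 3.20 for C1qb from BAMs (adjusted p = 0.0352, exact test), and no neighbours below monocytes differed past the threshold.

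**Figure D2:**
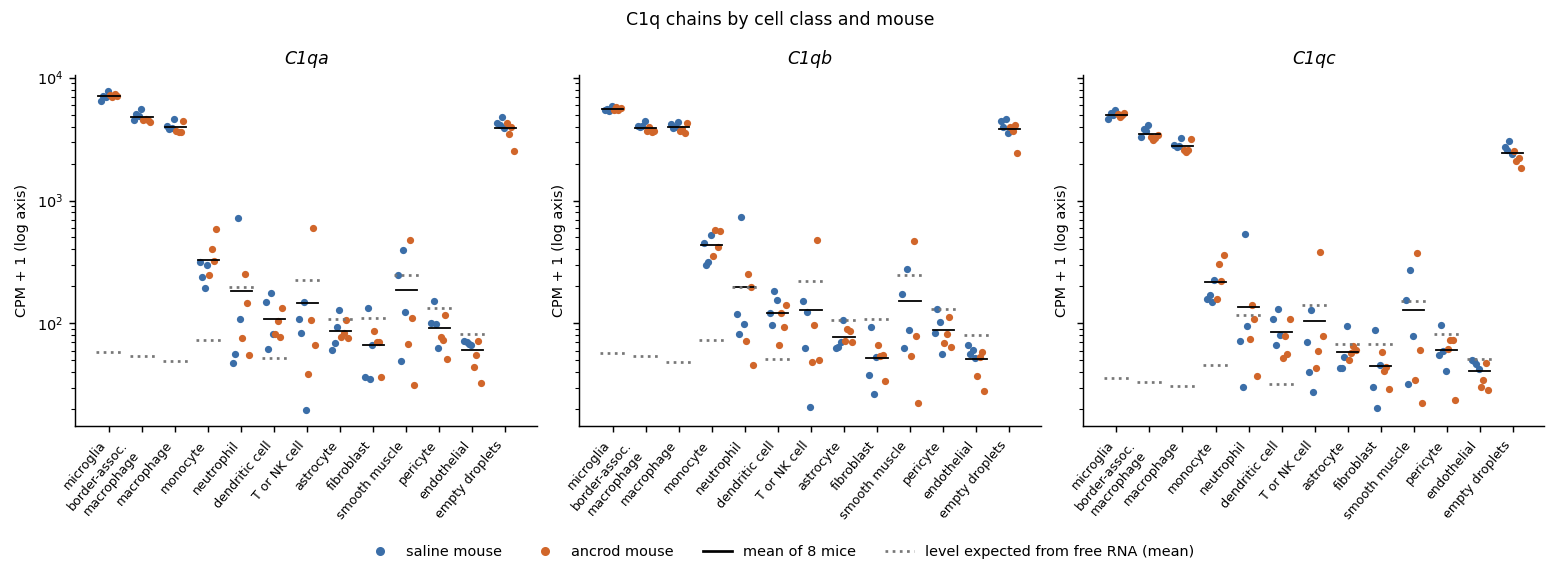
C1qa, C1qb and C1qc in each cell class, 1 point per mouse (CPM + 1, log axis; black line, mean of 8 mice; dotted line, level expected from free RNA). Microglia, BAMs and macrophages stand above the other classes in every mouse, and in endothelial cells the points lie at or under the dotted line.

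Microglia held 77.1% of all C1qa UMIs in cells, 73.7% of C1qb and 77.2% of C1qc, and macrophages 14.8%, 17.9% and 14.8%. These shares are set by the numbers of cells and by the RNA per cell, which a summed count cannot tell apart. The C1q genes were also abundant in empty droplets, at 3919 ± 666 CPM for C1qa, 3841 ± 661 CPM for C1qb and 2419 ± 378 CPM for C1qc. Against the empty droplets of the same mouse, microglia were higher for C1qa by 0.88, for C1qb by 0.56 and for C1qc by 1.06 (log2; exact sign-flip permutation test, adjusted p = 0.00927 over 108 tests). BAMs were higher for C1qa by 0.30 and for C1qc by 0.54 at the same adjusted p, whereas C1qb in BAMs (adjusted p = 0.696, exact test) and all 3 chains in macrophages did not pass (adjusted p from 0.0522 to 0.86, exact test).

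The share of free RNA in each class was estimated from microglial genes in non-myeloid classes and from endothelial and astrocyte genes in immune classes, and its median ranged from 1.19% to 4.32%. With this share, free RNA alone would give 81.5 CPM of C1qa in endothelial cells, where 59.2 CPM were measured (0 of 8 mice above), and 110 CPM in fibroblasts, where 66.0 CPM were measured (0 of 8 mice above). C1q in these classes was therefore at or under background and is not read as expression. Macrophages held C1qa, C1qb and C1qc at 82.2, 83.0 and 94.0 times the level expected from free RNA, and BAMs C1qb at 73.8 times, in 8 of 8 mice each. In monocytes C1qa, C1qb and C1qc were 4.49, 6.06 and 4.87 times the level of free RNA in 8 of 8 mice, and in dendritic cells 2.12, 2.42 and 2.71 times in 7, 8 and 8 mice.

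Cell by cell, after thinning every cell to 2000 UMIs, 99.3% of microglia, 97.7% of BAMs and 79.4% of macrophages held a C1qa UMI. The background in endothelial cells was 9.95%, with a median depth of 11557 UMIs per cell against 15468 in microglia. Monocytes reached 19.7%, whereas neutrophils (14.6%), pericytes (14.3%) and T or NK cells (12.6%) lay near that endothelial share and dendritic cells (7.88%) below it. The median share of free RNA was 2.14% in endothelial but 1.19% in dendritic cells. The endothelial value is thus not the background of dendritic cells. In neutrophils the measured C1qa was on average 0.93 times the level expected from free RNA, with 4 of 8 mice above it. That expected level ran from 0 to 677 CPM over mice. The share of free RNA in neutrophils was 0% to 2.59% in saline and 6.06% to 17.0% in ancrod mice, read from as few as 1 marker UMI, so the average does not hold for each mouse. Without thinning, the shares were 99.5% in microglia and 40.6% in endothelial cells.

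The chains were not in the same proportion in every class. The ratio of C1qb to C1qa was 0.787 ± 0.0425 in microglia, 0.826 in BAMs and 1.00 ± 0.0421 in macrophages, where it was above that of microglia in 8 of 8 mice. Monocytes stood at 1.40 and empty droplets at 0.981 ± 0.0535. C1qc to C1qa, in contrast, was 0.704 in microglia and 0.703 in macrophages but 0.621 ± 0.0486 in empty droplets, under microglia in 8 of 8 mice. These ratios were looked at after the values had been seen.

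Among the 14 microglia clusters, mean C1qa ran from 4780 CPM (leading genes P3h2 and Tanc2) to 9032 CPM (Cd14, Saa3 and Apoc1). Macrophage clusters differed more, from 707.6 CPM in cells led by Cd36, Lgals3 and Tgfbi (583 to 862 CPM over mice) through 2623 CPM in dividing cells to 5138 CPM in cells led by Gpnmb, Gal and Spp1. The level in Cd36 cells was below every other macrophage cluster. BAMs held a cluster of 601 cells led by Mrc1, Ccl8 and F13a1. The rest were a cluster of 196 cells led by Ccl8, Pf4, Lyz2 and Gal. Their median depths were 23662 and 2900 UMIs per cell. Lpl, Cst7, Spp1, Lgals3, Fabp5 and Csf1, summed, stood at 2880 and 54100 CPM in this order. The macrophages led by Gpnmb, Gal and Spp1 held 71200 CPM of these genes, so the BAM name of the shallower cluster is uncertain. The shallower cluster held more C1qa (6378 against 4662 CPM) but less C3ar1 (121 against 446 CPM), C5ar1 (73.4 against 401 CPM) and C4b (102 against 288 CPM), each as the mean over 8 mice. The CPM of the class are mostly those of the deeper cluster, which carried 70899 C1qa UMIs against 4880. Shares of cells with a UMI, in contrast, count the cells of both clusters alike. Clusters were formed from these cells, so these values are a description.

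C4b, which encodes the C4 protein cleaved by the C1 proteases, was highest in BAMs (278 ± 82.0 CPM) and astrocytes (271 ± 45.6 CPM), a difference that did not pass the test (adjusted p = 0.996, exact sign-flip permutation test over 8 mice). Astrocytes measured 206.5, 228, 280 and 291 CPM in the saline and 328, 333, 257 and 243.5 CPM in the ancrod mice. BAMs measured 140.6, 354, 384 and 339 CPM in the saline and 276, 286, 200 and 242 CPM in the ancrod mice. The groups overlapped in both classes, and saline 1 was the lowest mouse in each.

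Microglia held 94.1 ± 37.9 CPM of C4b, below astrocytes by 1.59 on the log2 scale, fibroblasts 50.5 ± 14.1 CPM, below microglia by 0.85, and macrophages 20.6 CPM, below fibroblasts by 1.25 (each adjusted p = 0.0352, exact test, 8 of 8 mice). Oligodendrocyte precursors, with at least 10 cells in 6 mice, held 97.0 ± 39.1 CPM. BAMs were above empty droplets (82.0 ± 29.96 CPM) by 1.76 and astrocytes by 1.77 (log2, adjusted p = 0.00927, exact test), whereas microglia did not pass (adjusted p = 0.146, exact test). The level in microglia was 75.9 times and that in endothelial cells, 8.27 CPM, 4.87 times the level expected from free RNA, in 8 of 8 mice. Microglia, the class with the most cells, carried 48.8% of all C4b UMIs, astrocytes 22.6%, fibroblasts 8.87% and BAMs 8.03%.

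C4b in microglia varied over mice far more than C1q, with a coefficient of variation of 40.2%. It measured 66.9, 80.5, 82.6 and 172 CPM in the saline mice and 122.5, 94.4, 84.5 and 49.3 CPM in the ancrod mice. Saline 4, a mouse of the second batch, was the highest, and ancrod 4, the other mouse of that batch, the lowest. C4b was also highest in saline 4 in all cells summed (117.6 CPM) and in empty droplets (131.8 CPM). Interferon response genes, 6 genes summed, stood in microglia at 379, 327, 200 and 454 CPM in the saline and at 461, 396, 315 and 307 CPM in the ancrod mice, with saline 4 second to ancrod 1, and their part in C4b was not tested.

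Over microglia clusters, mean C4b ran from 44.8 CPM (P3h2, Tanc2) to 153.4 CPM (Snx24, Rhoh, Cx3cr1), and a cluster led by Cxcl10 and Ifit2 stood at 138.2 CPM. An astrocyte cluster of 78 cells led by Myoc and A2m held 653 CPM (595 to 722 CPM in 5 mice). In fibroblasts, cells led by Penk, Ccn3 and Ptgds held 149.8 CPM (6 mice) and 38.7% of the C4b UMIs of the class.

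C3, the central protein of the cascade, was of low abundance, with 13267 UMIs in all cells. Among the 12 classes its highest levels were in neutrophils (112.5 ± 50.9 CPM) and monocytes (103 ± 11.4 CPM), a difference that did not pass the test (adjusted p = 0.99, exact sign-flip permutation test). Neutrophils measured 23.4, 118, 117 and 165 CPM in the saline mice and 180, 129, 105 and 63.0 CPM in the ancrod mice. The value of saline 1 rests on 1 UMI in 11 cells. Monocytes measured 80.3, 110, 117 and 103 CPM in the saline and 112, 95.9, 106 and 99.7 CPM in the ancrod mice, a narrow range with overlapping groups.

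Macrophages (19.7 ± 4.29 CPM), microglia (18.8 ± 4.67 CPM), astrocytes (18.6 ± 17.3 CPM) and BAMs (10.3 CPM) formed the next level of C3. Monocytes were above macrophages by 2.35 on the log2 scale (adjusted p = 0.0352, exact test). Empty droplets held 13.5 ± 7.21 CPM, and neutrophils were above them by 2.89, monocytes by 2.96, macrophages by 0.61 and microglia by 0.54 (log2, exact test, adjusted p of at most 0.0180). Thinned to 2000 UMIs, 15.8% of neutrophils and 16.0% of monocytes held a C3 UMI, against 0.0309% of endothelial cells. Microglia carried 48.9 ± 12.5% of all C3 UMIs, macrophages 17.9%, monocytes 9.16% and astrocytes 6.32%.

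The C3 of astrocytes came from few cells. The Myoc and A2m cluster made up 2.29% of astrocytes and held 84.5% of their C3 UMIs, at 308 CPM (158.7 to 432.4 CPM in 5 mice). The other astrocytes held 2.61 CPM (0 to 12.1 CPM over mice). Over whole mice the astrocyte level ran from 4.09 CPM in saline 1 to 53.5 CPM in ancrod 1, without separation of the groups.

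Ependymal cells, which line the ventricles, were few (78 cells in 4 mice, 48 of them in saline 4), and in the 3 mice with at least 10 of them their C3 was 1467 CPM in saline 4, 108.8 CPM in ancrod 1 and 56.2 CPM in ancrod 2. C4b in these cells was 704, 169 and 164 CPM and Serping1 609, 80.2 and 76.6 CPM in the same order of mice. In saline 4 they held 53.5% of the C3 UMIs of all cells.

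Cfb, factor B of the alternative pathway, was barely detected, with 1295 UMIs in all cells. BAMs held 3.31 ± 2.34 CPM, resting on 50 UMIs, and macrophages 3.24 ± 1.70 CPM. In macrophages Cfb measured 2.59, 3.76, 3.08 and 7.097 CPM in the saline and 2.48, 3.29, 1.90 and 1.71 CPM in the ancrod mice, with saline 4 the highest. Macrophages were above microglia (1.99 CPM) by 0.46 on the log2 scale (8 of 8 mice, adjusted p = 0.0352, exact sign-flip permutation test). No class passed the test as higher than empty droplets (1.89 CPM). BAMs were higher in 7 of 8 mice (adjusted p = 0.171, exact test) and macrophages in 6 of 8 (adjusted p = 0.0522, exact test). Cfb was 119 times the level expected from free RNA in BAMs, 137 times in macrophages and 69.9 times in microglia, in 8 of 8 mice each. No UMI of Cfb was found in dendritic cells, T or NK cells and smooth muscle cells, whose depth allows up to 0.216, 0.591 and 0.926 CPM over the class (3 counts; counting error only).

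A cluster of 70 macrophages led by Saa3, Ms4a4c and Rsad2 held 108.5 CPM of Cfb in saline 4, against 3.81 CPM in ancrod 1 and 4.22 CPM in ancrod 2, and 371, 26.7 and 84.4 CPM of C3. This pattern rests on 1 mouse. Without these cells, Cfb in macrophages ran from 1.481 to 3.59 CPM over mice. Of all Cfb UMIs microglia held 45.9%, macrophages 24.6%, fibroblasts 10.7% and endothelial cells 7.98%. Within fibroblasts 63.2% of them lay in the Penk cells, and within endothelial cells 85.9% in a cluster led by Ackr1, Il1r1 and Vwf.

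**Figure D3:**
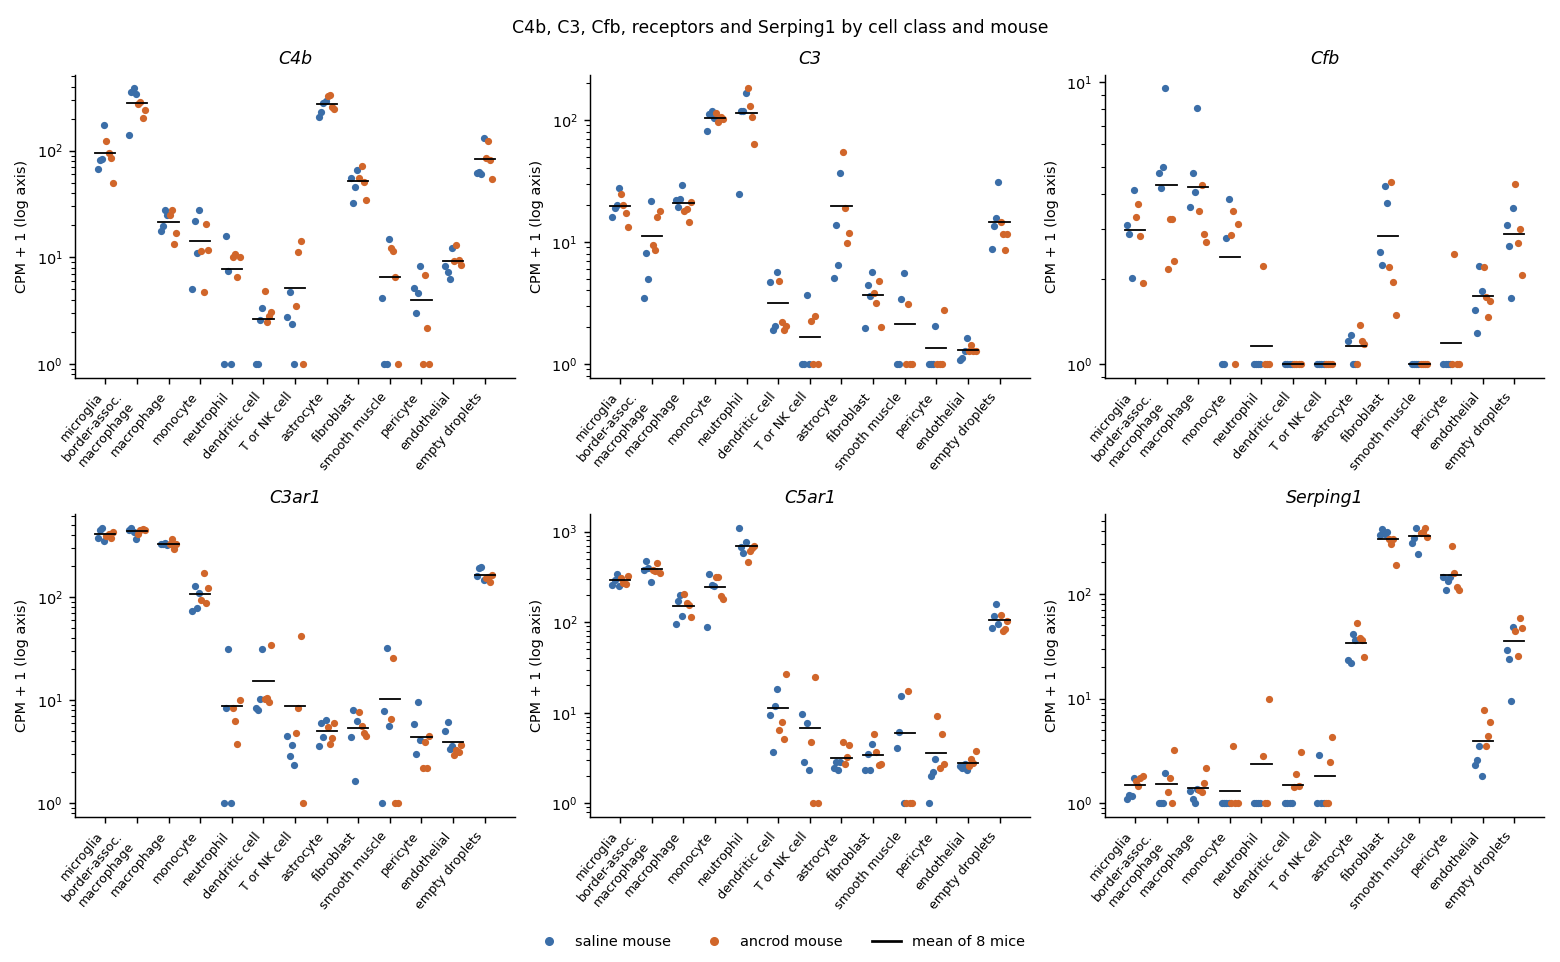
C4b, C3, Cfb, C3ar1, C5ar1 and Serping1 in each cell class, 1 point per mouse (CPM; black line, mean of 8 mice). C3ar1 is highest in BAMs and microglia, C5ar1 in neutrophils, and Serping1 in smooth muscle cells and fibroblasts.

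The receptor for C3a, C3ar1, was highest in BAMs (428 ± 32.1 CPM) and microglia (403 ± 39.0 CPM), a difference that did not pass the test (adjusted p = 0.296, exact sign-flip permutation test). BAMs measured 444, 465, 421 and 364 CPM in the saline and 403, 439, 449 and 443 CPM in the ancrod mice. Microglia measured 372, 445, 462 and 349 CPM in the saline and 388, 407, 374 and 423 CPM in the ancrod mice. Here saline 4, the highest mouse for C1q, was the lowest in both classes, and the groups overlapped. Macrophages (325 ± 20.0 CPM) were below microglia by 0.31, monocytes (107 ± 32.4 CPM) below macrophages by 1.65 and dendritic cells (14.4 CPM) below monocytes by 3.00 on the log2 scale (adjusted p = 0.0352, exact test). The 7 other classes held at most 9.14 CPM, and empty droplets 162 ± 20.4 CPM. In BAMs, C3ar1 was above empty droplets by 1.41, in microglia by 1.32 and in macrophages by 1.01 (log2, adjusted p = 0.00927, exact test).

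C5ar1, the receptor for C5a, had another order, led by neutrophils with 692 ± 188 CPM. Neutrophils measured 1102, 682, 573 and 758 CPM in the saline and 464, 617, 651 and 693 CPM in the ancrod mice. The highest value, saline 1, came from 11 cells, and the groups overlapped. BAMs (382 ± 60.0 CPM) were below neutrophils by 0.83 and microglia (288 ± 34.1 CPM) below BAMs by 0.40 on the log2 scale (adjusted p = 0.0352, exact test). Monocytes (241 ± 84.0 CPM) did not differ from microglia past the threshold (adjusted p = 0.415, exact test) nor macrophages (152 ± 39.7 CPM) from monocytes (7 of 8 mice lower, adjusted p = 0.0619, exact test). All 5 classes were above empty droplets (105 ± 25.8 CPM), by 2.70, 1.87, 1.47, 1.13 and 0.52 on the log2 scale in the order given (adjusted p = 0.00927, exact test).

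By sum, microglia held 73.0% of C3ar1 and 75.2% of C5ar1 UMIs, macrophages 20.4% and 13.6%, and BAMs 4.0% and 5.08%. Thinned to 2000 UMIs, 70.1% of neutrophils, 38.4% of BAMs and 36.3% of microglia held a C5ar1 UMI, against 0.437% of endothelial cells. Neutrophils had a median depth of 4887 UMIs per cell and microglia of 15468. Microglia clusters ran from 224 CPM to 607 CPM of C3ar1, the latter led by Chst8 and Tbc1d16 (551 to 688 CPM over mice), and from 70.2 CPM to 466 CPM of C5ar1, the latter led by Il1a and Olr1. The Cd36 and Lgals3 macrophages, lowest in C1qa, held 340.5 CPM of C5ar1, and the Gpnmb, Gal and Spp1 macrophages, highest in C1qa, 82.5 CPM.

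Serping1, the C1 inhibitor, was found in stromal and mural cells. Smooth muscle cells held 355 ± 62.7 CPM and fibroblasts 336 ± 70.3 CPM, a difference that did not pass the test (adjusted p = 0.972, exact sign-flip permutation test). Smooth muscle cells measured 303, 343, 421 and 237 CPM in the saline and 377, 385, 426 and 351 CPM in the ancrod mice, with overlap. Pericytes (149 ± 58.2 CPM) were below fibroblasts by 1.21, astrocytes (33.2 ± 10.4 CPM) below pericytes by 2.12 and endothelial cells (2.98 ± 2.00 CPM) below astrocytes by 3.20 on the log2 scale (adjusted p = 0.0352, exact test). The 7 other classes held at most 1.35 CPM. Smooth muscle cells were above empty droplets (34.8 ± 16.3 CPM) by 3.47, fibroblasts by 3.38 and pericytes by 2.18 (log2, adjusted p = 0.00927, exact test). Fibroblasts carried 77.6 ± 13.8% of Serping1 UMIs, astrocytes 4.81%, smooth muscle cells 4.69% and pericytes 4.12%. Thinned to 2000 UMIs, 46.6% of fibroblasts and 43.2% of smooth muscle cells held a UMI, against 0.127% of microglia.

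Fibroblast clusters were unequal in Serping1. Cells led by Cemip, Col18a1 and Lum held 535 CPM, Penk cells 425 CPM, and the clusters led by Col1a1 and Col1a2 191 and 184 CPM.

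**Figure D4:**
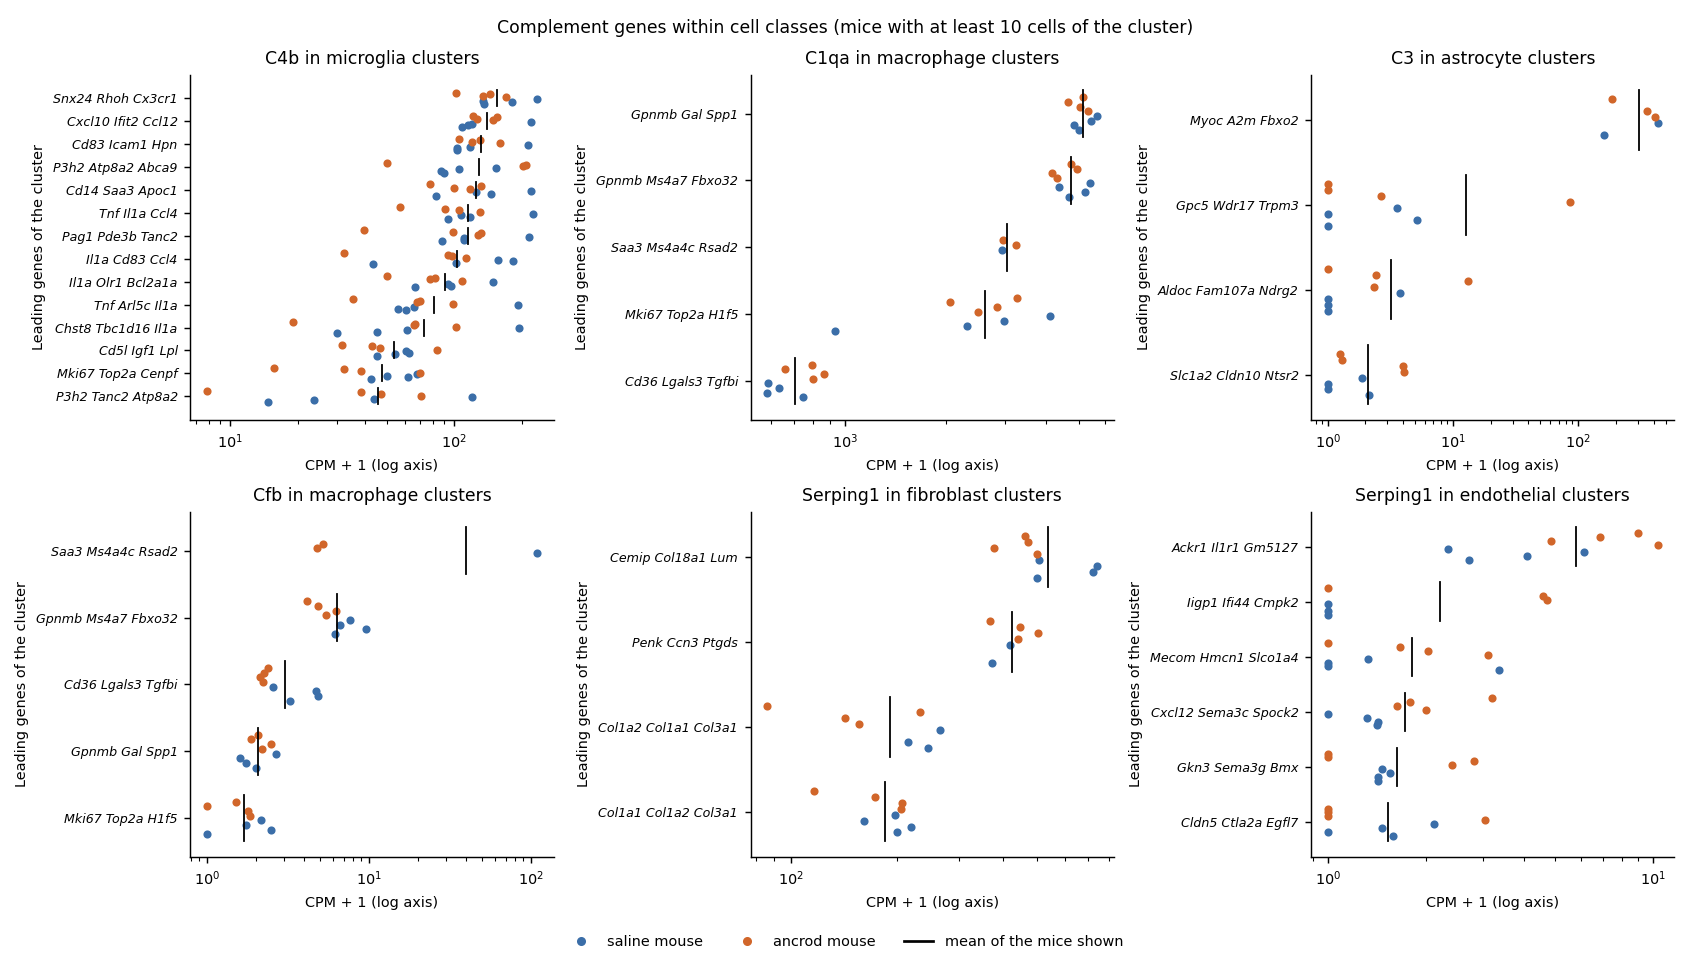
Complement genes within classes, by clusters named with their leading genes (CPM, 1 point per mouse with at least 10 cells). C1qa is lowest in Cd36 macrophages, C3 of astrocytes lies in the Myoc cluster, and Serping1 of fibroblasts is highest in the Cemip cluster.

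Whether fibrinogen depletion altered the complement genes was tested on UMIs summed per mouse with edgeR's quasi-likelihood test, adjusted by Benjamini-Hochberg over all genes of each fit. Of 80 pairs of gene and class with enough UMIs in 13 classes (oligodendrocyte precursors with 3 mice against 3), none passed an adjusted p of 0.05, the smallest being 0.248, and DESeq2 called none either. Over all genes the same fits called 5 of 121333, or 0.00412%, whereas DESeq2 called 420 genes in these classes. The log2 change, ancrod over saline, was positive in 36 and negative in 44 pairs and under 0.5 in size in 62. At an unadjusted p under 0.05 there were 12 pairs (15.0%), against 6.69% of all genes tested. Several of these pairs are C1q chains, which follow one another and share mice. The pairs are therefore not independent, and the gap between these shares is not a test.

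C1q in microglia, the class with the most cells, differed little between the groups. The log2 change was 0.06 ± 0.09 (SE) for C1qa, 0.04 ± 0.08 for C1qb and 0.02 ± 0.09 for C1qc (edgeR, adjusted p = 0.957, 0.962 and 0.986), so that none of the chains moved beyond the spread of 4 mice per group. C4b in BAMs gave −0.31 ± 0.23 (adjusted p = 0.875), C3 in neutrophils 0.05 ± 0.39 (adjusted p = 0.997) and C3ar1 in BAMs 0.03 ± 0.10 (adjusted p = 0.992) by edgeR. C5ar1 in neutrophils gave −0.35 ± 0.25 (adjusted p = 0.916) and Serping1 in smooth muscle cells 0.25 ± 0.17 (adjusted p = 1.0) by edgeR. Cfb in BAMs, its highest class, had too few UMIs for a test. The median over the 9 genes in microglia was 0.02 and over the 13144 genes tested 0.0016, and in macrophages −0.12 over 8 genes and 0.0016 over 11341.

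**Figure D5:**
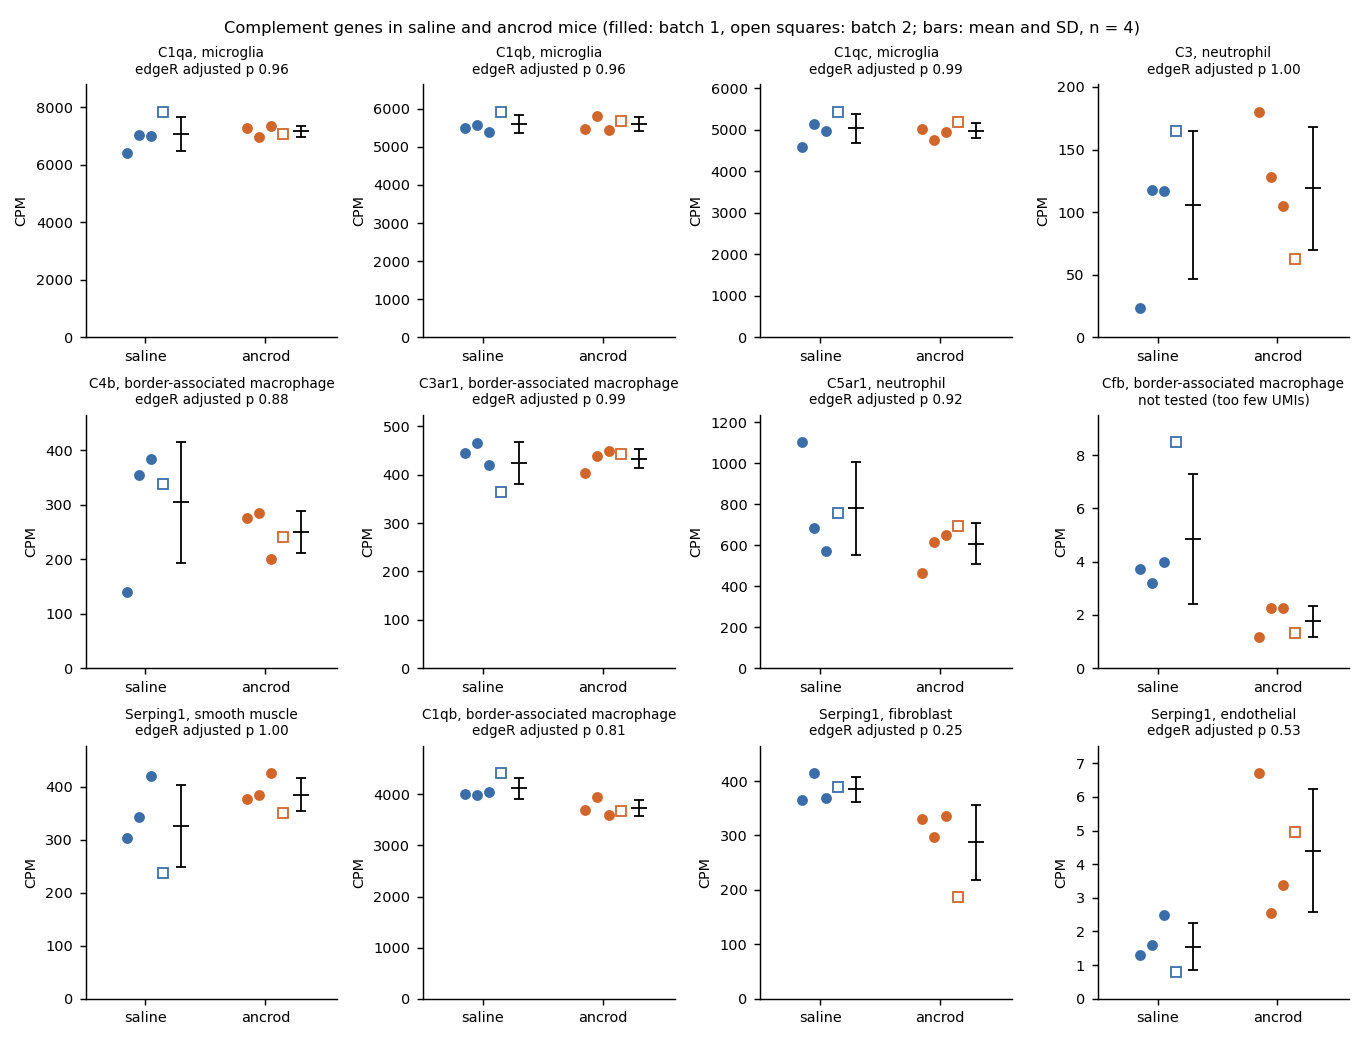
Levels by mouse in saline and ancrod (CPM, axes from 0; filled points, batch 1; open squares, batch 2; bars, mean and SD of 4 mice; edgeR adjusted p above each panel). Serping1 in fibroblasts and endothelial cells and C1qb and Cfb in BAMs do not overlap between groups. Cfb in BAMs had too few UMIs for a test and has no adjusted p, and every adjusted p given is 0.248 or more.

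In 3 of the 80 pairs the groups did not overlap, against 4.1% of all genes in these fits. Serping1 in fibroblasts measured 364.5, 415.2, 368.8 and 389.7 CPM in the saline and 330.3, 296.9, 334.9 and 187.6 CPM in the ancrod mice. Every ancrod mouse was below every saline mouse, with a log2 change of −0.42 ± 0.16 (edgeR, adjusted p = 0.248), and 8.91% of genes in fibroblasts did not overlap. In batch 1 alone the change was −0.28 (edgeR, adjusted p = 0.334). Within the Cemip fibroblasts Serping1 measured 501, 720, 742 and 507 CPM in the saline and 498, 378, 471 and 463 CPM in the ancrod mice. The nearest mice of the groups were 501 and 498 CPM, saline 3 had only 31 fibroblasts in all, and no test was run within the cluster. These cells made up 54.7%, 48.8%, 32.3% and 50.7% of fibroblasts in the saline and 38.7%, 28.2%, 46.0% and 22.5% in the ancrod mice. In the other fibroblasts the range was 197 to 293 CPM in saline and 132.5 to 275 CPM in ancrod mice, with overlap. Genes of dividing cells, 5 genes summed, also separated the groups in fibroblasts, at 94.5 to 216 CPM in saline and 224 to 478 CPM in ancrod mice, and their part in Serping1 was not tested.

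Serping1 in endothelial cells went the other way at a low level. It was 4.14 times the level expected from free RNA on average, and above that level in 7 of 8 mice. It measured 1.30, 1.59, 2.49 and 0.809 CPM in the saline and 6.72, 2.55, 3.38 and 4.96 CPM in the ancrod mice. Every ancrod mouse was above every saline mouse, with a log2 change of 1.47 ± 0.39 (edgeR, adjusted p = 0.526), and 3.84% of genes in endothelial cells did not overlap. The Ackr1 cluster held 87.2% of these UMIs and 10.7% to 20.4% of endothelial cells in saline but 26.6% to 41.4% in ancrod mice. Within that cluster Serping1 was at 1.34 to 5.12 CPM in saline and 3.86 to 9.34 CPM in ancrod mice, and outside it at 0.219 to 1.14 and 0.551 to 1.64 CPM. The 6 fibroblast markers summed in endothelial cells stood at 29.0, 22.8, 20.8 and 33.2 CPM in the saline mice. In the ancrod mice they stood at 232, 19.8, 89.8 and 156 CPM. The ancrod mice had the same order as for Serping1 and the saline mice the reverse order. Ancrod 2, the lowest mouse for these markers, was above every saline mouse for Serping1. Of these markers Dcn separated the groups (1.99 to 4.13 CPM in saline and 5.54 to 19.5 CPM in ancrod mice), and their part in Serping1 was not tested.

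C1qb in BAMs measured 4008, 3991, 4046 and 4420 CPM in the saline and 3688, 3949, 3603 and 3669 CPM in the ancrod mice. The ancrod mice were all lower, by a small log2 change of −0.15 ± 0.08 (edgeR, adjusted p = 0.810), and 3.72% of genes in BAMs did not overlap. C1qa and C1qc in BAMs overlapped between groups. Cfb in BAMs measured 3.73, 3.20, 4.00 and 8.49 CPM in the saline and 1.17, 2.26, 2.27 and 1.32 CPM in the ancrod mice. These groups were also apart, on 50 UMIs in all and with no test. In dendritic cells Serping1 was at 0 in the saline mice and at 0.423, 0.894, 0.454 and 2.08 CPM in the ancrod mice, with too few UMIs for a test.

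Of the other pairs at an unadjusted p under 0.05, C3 in macrophages gave a log2 change of −0.41 (edgeR, adjusted p = 1.00) and Cfb in macrophages −0.86 (edgeR, adjusted p = 1.00). Saline 4 was the highest mouse for both, and without it the log2 changes were −0.28 for C3 and −0.46 for Cfb, with no member in macrophages left at an unadjusted p under 0.05. Without the Saa3 macrophages, mean C3 was 18.5 CPM in saline and 16.6 CPM in ancrod mice and mean Cfb 3.015 and 2.235 CPM. C1qa and C1qc in monocytes gave 0.56 and 0.50 (edgeR, adjusted p = 0.976). C1qa, C1qc and C3ar1 in endothelial cells were also among them, with means under those expected from free RNA, although C3ar1 was above it in 2 of 8 mice. C1qc in BAMs gave −0.21 ± 0.09 (edgeR, adjusted p = 0.761). In oligodendrocyte precursors, tested in 3 mice per group, C1qb gave −2.41 ± 0.95 and C1qc −2.93 ± 1.08 (edgeR, adjusted p = 0.999). Saline 4 stood at 470 CPM of C1qb and 468 CPM of C1qc there, against 18.06 to 45.03 CPM in the other saline mice. The share of free RNA in this class was 12.9% in saline 4 and 0.482% to 1.82% in the other mice tested, and its part in these values was not tested.

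With all cells of a mouse summed, 0 of 9 complement genes passed, against 2 of 16182 genes (0.0124%), with log2 changes from −0.59 (C3) to 0.58 (Serping1) and a smallest adjusted p of 0.330 by edgeR. The C3 value rests on saline 4 (40.4 CPM, against 8.41 to 16.2 CPM in the other saline mice), where ependymal cells held 53.5% of the UMIs, and it was 0.02 without that mouse. In these sums the number of cells of a class and the RNA per cell cannot be told apart. Endothelial cells made up 19.4% to 22.7% of cells in saline and 6.99% to 16.9% in ancrod mice, macrophages 4.78% to 8.34% and 8.72% to 11.95%, microglia 40.4% to 44.1% and 27.8% to 42.7%, and fibroblasts 0.52% to 4.28% and 1.95% to 10.2%. In empty droplets 0 of 9 passed, against 0 of 13200 genes, with log2 changes from −0.59 to 0.74. At an unadjusted p under 0.05 edgeR had 0 members in both fits, against 2966 of 16182 and 1142 of 13200 genes, and DESeq2 called 0 members, against 1034 and 17 genes. In neither fit did a complement gene separate the groups, against 9.61% and 3.46% of genes.

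Other genes of the complement pathway were taken as a list of 46, of which 45 were counted. Of 186 pairs of gene and class tested for ancrod against saline, 0 passed in either direction by edgeR and 0 by DESeq2. Among all genes in these classes, edgeR called 5 of 121333 and DESeq2 called 420. By edgeR 22 pairs (11.8%) had an unadjusted p under 0.05, against 6.69% of all genes in the same fits. These pairs share mice, so this gap is a description too. Among classical pathway proteases, C1s1 was highest, in smooth muscle cells (124.1 ± 23.7 CPM), and properdin (Cfp), which stabilizes the alternative convertase, reached 221.9 ± 22.9 CPM in BAMs. Of the lectin pathway, Colec12, a collectin of the cell surface, stood at 1029 ± 151 CPM in pericytes, and of the terminal proteins C6 was highest, at 8.37 ± 6.86 CPM in BAMs. Vitronectin (Vtn), an inhibitor of the terminal complex, led the regulators with 11970 ± 1702 CPM in pericytes, and Cd93 the receptors with 574 ± 83.1 CPM in endothelial cells.

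Genes whose levels over 16 classes were most like those of each member were sought among 13951 genes, by Pearson's r of mean log2(CPM + 1). Fcrls and Trem2, both known from microglia, led for C1qa (r = 0.986 and 0.982), C1qb (0.978 and 0.992) and C1qc (0.988 and 0.984). Trem2 was also first for C3ar1 (0.964), and Hk3 for C5ar1 (0.964). C4b was closest to Pdlim4 (0.941), C3 to Ankrd66 (0.859), Cfb to Rnase4 (0.936) and Serping1 to Kirrel (0.963). The 16 classes take in ependymal cells, the class with the highest Ankrd66, and 48 of these 78 cells came from saline 4. The part of that class in the match of C3 was not tested. Among the members themselves, the C1q chains correlated at 0.996 to 0.999, C1qb and C3ar1 at 0.967, and Serping1 and C5ar1 at −0.615. The points share libraries, depth and free RNA, so these values are descriptive.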

How the data were processed

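Single-cell RNA libraries (10x Genomics, 3′ chemistry) of 8 mice were deposited by the authors as raw UMI counts of every droplet. The submitters' processing notes name Cell Ranger 7.1.0, STAR and GRCm39. No cell annotation of the authors was used. Droplets of at least 2000 UMIs and under 20% mitochondrial UMIs were kept, and the highest doublet scores were removed at 0.8% per 1000 cells. Cells were clustered with scanpy 1.11.5 and leidenalg 0.10.2 (3000 variable genes without the complement genes, 30 principal components, 20 neighbours, resolution 2). The cells of myeloid clusters were then clustered again by themselves at resolution 1.5. All clusters were named from fixed markers. The score of another lineage (0.3) that left a cluster unnamed was set after the clusters had been seen. Members and gene lists were chosen with earlier results of these data known. Named were all 9 members, with full ancrod values in the class of the highest level and wherever groups did not overlap. Of the pathway list, the highest gene of each role was named, and the genes most alike were those with the highest r.

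UMI counts were summed per mouse and class (at least 10 cells) and tested with edgeR 4.0.16 (R 4.3.3; filterByExpr, TMM, quasi-likelihood test, Benjamini-Hochberg over all genes of the fit), with DESeq2 1.42.0 as an alternative. The scripts were tested on simulated data. Levels were log2(CPM + 1). The mouse was the replicate.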

Additional observations from a re-analysis of the deposited data

Results flagged for a closer look

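In groups of 4 mice, 7 of 60 groups held a mouse far apart from the other 3. Chance would mark about 1 in 20 of independent groups. These groups share mice and related genes, so their count cannot be set against that rate. Saline 4, of the second batch, was the mouse apart in 5 of them. C1qb in BAMs was 4420 CPM in saline 4 (others 3991 to 4046 CPM), and Cfb in BAMs was 8.49 CPM (others 3.20 to 4.00 CPM). C4b in saline 4 was 117.6 CPM in all cells (others 59.6 to 63.2 CPM) and 131.8 CPM in empty droplets (others 59.7 to 62.2 CPM), and Cfb in all cells was 3.07 CPM (others 1.34 to 1.55 CPM). C1qc in all cells was 2073 CPM in saline 1 (others 2841 to 2958 CPM), and C5ar1 in all cells was 176.8 CPM in ancrod 1 (others 119.1 to 124.4 CPM).

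For Serping1, the ancrod mice lay below the saline mice in fibroblasts and above them in endothelial cells, although neither difference passed the test (edgeR, adjusted p = 0.248 and 0.526). The log2 difference of fibroblasts over endothelial cells was 7.28 in saline and 5.76 in ancrod mice, a difference of −1.52. The pair of classes was chosen because the groups were apart in each, which fixes that they are apart here. An exact permutation test of this difference over 70 arrangements was thereby fixed at its smallest p and is not used.

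C1qa was also high in cells outside the named classes. The 4 unnamed clusters given here, 3155 cells in all, were taken because microglia markers were their nearest and their cells were shallow. Their median depth was 2749 to 3149 UMIs against 8290 to 39330 in the 14 microglia clusters. With the UMIs of all 8 mice pooled, C1qa stood at 10250 CPM in 1921 cells led by Ltc4s and Crybb1 (9673 to 11030 CPM over mice) and at 10250 CPM in 774 cells led by Cd5l and Cst7 (8366 to 12080 CPM). It stood at 6160 CPM in 299 cells led by genes of dividing cells (2620 to 8519 CPM) and at 10310 CPM in 161 cells led by Ccl12 and Ifit3 (8672 to 11790 CPM). Another unnamed cluster nearest to microglia was deeper and held less C1qa. Its 60 cells, led by Folr2 and Gdf15, had a median depth of 12157 UMIs and 4663 CPM of C1qa with all mice pooled.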

How the results depend on the processing

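No complement gene was called in 261 of 262 alternative fits of ancrod against saline. The exception was neutrophils without a filter on low counts, where 1 complement gene passed (C1qc, log2 change −1.15, edgeR adjusted p = 0.042) among 99 genes called. Saline 3 stood at 532 CPM of C1qc in neutrophils, against 29.5 to 93.6 CPM in the other saline mice and 36.0 to 141 CPM in the ancrod mice. Of 198 recomputed fold changes, 186 kept their direction and 12, all of size under 0.3, reversed. C1qa in microglia was −0.0105 without saline replicate 1. C1qc in microglia was −0.0387 without saline replicate 1, −0.0063 without ancrod replicate 1 and −0.0037 without ancrod replicate 4. C3 in neutrophils was −0.136 without saline replicate 1, −0.283 without ancrod replicate 1 and −0.016 without saline replicate 2, and −0.021 with a replicate block, −0.143 with the study's droplet filter and −0.043 with doublets kept. C3ar1 in BAMs was −0.043 without saline replicate 4 and −0.055 in batch 1 alone. The cause of these reversals was not tested. Without 1 mouse, C1qa in microglia reached up to 0.099, C1qc in microglia 0.053, C3 in neutrophils 0.332 and C3ar1 in BAMs 0.082. C4b in BAMs then ran from −0.537 to −0.189 and Serping1 in smooth muscle cells from 0.151 to 0.398. Serping1 then ran from −0.498 to −0.278 in fibroblasts and from 1.20 to 1.81 in endothelial cells, and its smallest adjusted p in any setting was 0.102 (endothelial, edgeR).

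Over all genes, calls in the 13 classes went from 5 with edgeR to 420 with DESeq2 and 153 with a replicate block, and in all cells from 2 to 1034 with DESeq2. In fibroblasts DESeq2 gave 306, and without a filter neutrophils gave 99 and pericytes 165. No setting moved the median of all genes by more than 0.207 (neutrophils). Same-numbered deviations correlated between −0.472 and 0.21 in 16 comparisons, and those of replicate 4, the second batch, were positive in each (0.0543 to 0.21). Whether replicate numbers pair the mice was not tested, and the replicate block called no complement gene in 15 fits.

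Of 99 neighbour pairs, 22 passed, 35 with doublets kept, and 0 without any 1 mouse, since 7 mice allow no p below 0.0156. Against empty droplets 95 of 108 passed, 22 as higher and 73 as lower than the empty droplets, and 87 to 96 passed under the alternatives.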
